A study of Homo sapiens with 4 samples.

Results

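The tubulin genes described here are 8 genes that were chosen by name, with results of the same comparison already known: the beta tubulins TUBB, TUBB3 and TUBB6, the alpha tubulins TUBA1A, TUBA1B, TUBA1C and TUBA4A, and the gamma tubulin TUBG1. They are 8 of the 17825 genes listed in the deposited table, and all 8 were among the 14207 genes with enough counts to be tested. RNA was sequenced from KYSE150, an established cell line of human esophageal squamous cell carcinoma, in 4 libraries. The siCEBPG group holds 2 libraries from cells that received siRNA targeting CEBPG, the gene of the transcription factor C/EBP gamma. The Control group holds 2 libraries from cells given a negative control. The file headers give the siRNA a number and no second siRNA was analysed here. The sources used here do not give its sequence, that of the control or the time after transfection.

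Microtubules are hollow polymers of alpha and beta tubulin dimers, and gamma tubulin sits in ring complexes that start new microtubules at centrosomes. Human cells carry several genes for each type, whose products differ mostly in their C-terminal tails, and newly made alpha and beta chains reach their fold through prefoldin, the CCT chaperonin and a set of cofactors. Cells also adjust tubulin mRNA to the amount of free dimer: TTC5 binds the first residues of a tubulin chain as it leaves the ribosome and, with SCAPER and the CCR4-NOT deadenylase, brings about decay of the mRNA being read.

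The first coding bases are shown because they encode the residues through which TTC5 recognises nascent tubulins, and because they show how close the genes are to each other. They were read 5′ to 3′ from GENCODE transcripts on GRCh38, and capitals mark the codons after the start codon that hold this recognition motif in alpha and beta chains, with the same codon positions in TUBG1 for comparison.
TUBB: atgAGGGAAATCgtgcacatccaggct
TUBB3: atgAGGGAGATCgtgcacatccaggcc
TUBB6: atgAGGGAGATCgtgcacatccaggcg
TUBA1A: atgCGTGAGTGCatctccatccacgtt
TUBA1B: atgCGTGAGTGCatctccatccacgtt
TUBA1C: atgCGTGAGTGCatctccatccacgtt
TUBA4A: atgCGTGAATGCatctcagtccacgtg
TUBG1: atgCCGAGGGAAatcatcaccctacag
The 3 TUBA1 genes have the same bases over this stretch, the beta genes differ from each other at few bases, and TUBG1 has a different start.

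Likeness among the genes sets how well their reads can be told apart. The coding sequence of TUBA1A was 97.2% identical to that of TUBA1B and 96.3% identical to that of TUBA1C, and the translated TUBA1A and TUBA1B differed at 2 residues. Of the words of 100 bases in each transcript, 37.2% in TUBA1B, 18.3% in TUBA1A and 11.5% in TUBA1C also occur in another transcript. TUBB shares 5.1% of such words, all with its pseudogene TUBBP1, and TUBB6 shares none. Sharing is larger over words of 50 bases, at 62.7% in TUBA1B, 41.1% in TUBA1A, 25.1% in TUBA1C, 29.9% in TUBG1, 18.2% in TUBB and 0.99% in TUBB6, and the length of the reads was not known here. Over words of 100 bases TUBG1 shares 14.95% with its near copy TUBG2, the proteins differing at 10 residues. TUBB3 shares 89.0%, because a read-through gene of the annotation, AC092143.1, contains most of its transcript. The sources used here do not say how the authors divided reads between such copies, so the split among the TUBA1 genes, between TUBG1 and TUBG2, and the level of TUBB3 are uncertain.

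The 4 libraries had 15432762 to 15536501 counts. Levels are given as CPM, which relates a gene's reads to the effective size of its library after TMM, or, where named, as RPKM, the authors' value that also divides by gene length. CEBPG had 214 and 204 counts in siCEBPG libraries and 792 and 751 in Control libraries, and it fell, at -1.98 on the log2 scale (SE 0.077, adjusted p = 1.82e-11 in edgeR). All 8 squamous epithelium markers on the list were tested, and their summed level was 1814 and 1859 CPM in siCEBPG libraries against 1830 and 1836 CPM in Control libraries. This sum hides changes in both directions, since 3 of the 8 fell (KRT14 at -1.09, KRT17 at -0.99 and SFN at -0.89 on the log2 scale) and 4 rose (TP63 at 0.59, DSG3 at 0.41, KRT5 at 0.20 and CDH1 at 0.13), all by the edgeR test. Of 14 neuron markers, looked at because TUBB3 is a familiar neuronal marker, 10 have no row, among them DCX, ELAVL3 and SNAP25, and the summed level of the other 4 was 34.7 and 34.2 CPM in siCEBPG libraries against 32.1 and 34.2 CPM in Control libraries, with MAP2 lower (log2 fold change -0.57), DLG4 (0.74) and RBFOX3 (1.53, under 1 CPM) higher and SYP not called. Of 12 retina markers, included because the design text uses the word retinal, 4 had a row and 3 were tested. The 3 tested genes summed to 4.63 and 4.57 CPM in siCEBPG libraries and 3.20 and 3.81 CPM in Control libraries. Of these 3, 1 was higher. For stroma and immune markers, 8 of 16 had a row and 6 were tested. The 6 tested genes summed to 27.7 and 25.5 CPM in siCEBPG libraries against 22.7 and 20.3 CPM in Control libraries. Of these 6, 2 were higher. The part of these markers in any tubulin result was not tested. In bulk RNA, fewer cells with a transcript and less of it per cell cannot be told apart.

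Every tubulin gene of the set was lower in both siCEBPG libraries than in both Control libraries, and TUBB stood apart in size. Summed over the 8 genes, the counts were 24171 and 24514 in siCEBPG libraries, or 0.157% and 0.158% of each library, and 43048 and 43574 in Control libraries, or 0.277% and 0.281%. The groups did not overlap for any of the 8, with siCEBPG lower. Over all genes tested, 38.2% had this pattern. At an edgeR adjusted p under 0.05, 6 of the 8 were called lower, 0 higher and 2 not called, where 54.3% of all genes were called, 28.8% lower and 25.5% higher. The genes were chosen with this comparison known, so these counts are a description and their changes carry no test. The median log2 fold change of the 8 genes was -0.38, beside 0.005 over all genes tested. Without TUBB the median was -0.37 and the values ran from -0.39 to -0.19.

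**Figure D1:**
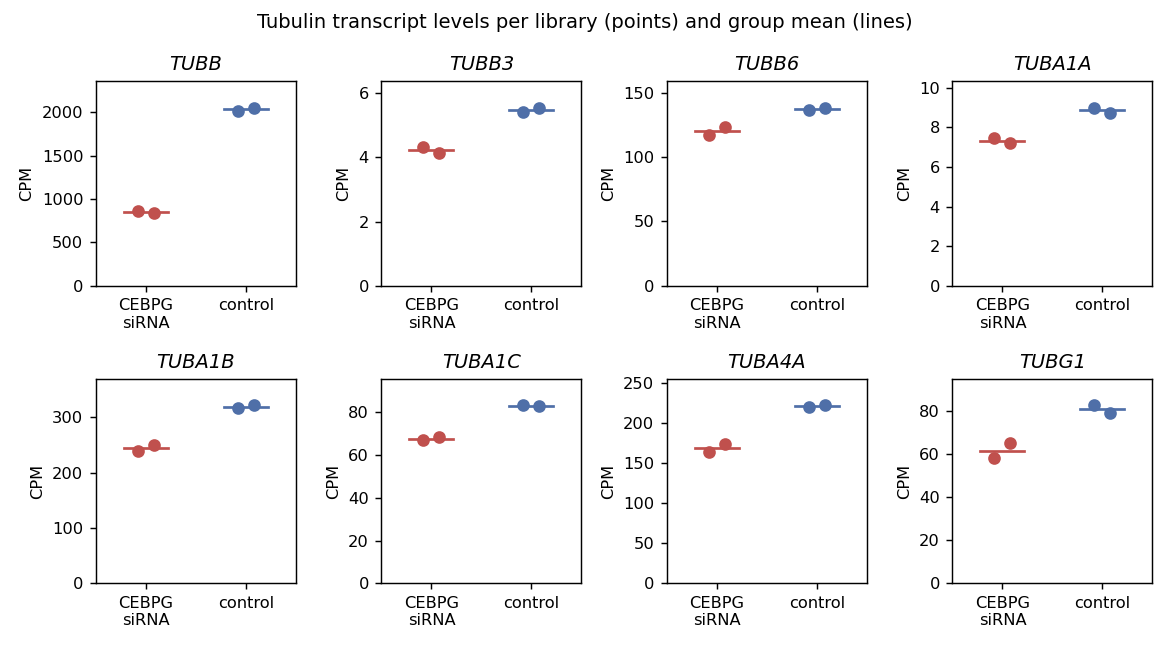
Level of each of the 8 tubulin genes in CPM (vertical axes from 0, one scale per gene), with one point per library and a line at the group mean of 2 libraries, CEBPG siRNA left and control right. In every panel both siRNA points lie below both control points, and the gap is widest for TUBB, at 849 CPM in siCEBPG cells and 2034 CPM in Control cells.

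TUBB, the main beta tubulin of dividing non-neuronal cells, is a plus-strand gene of chromosome 6, from 30720201 to 30725426 (GRCh38, ENSG00000196230.12), and has 4 exons in the transcript used here, TUBB-205. Its counts were 13681 and 13460 in siCEBPG libraries against 30238 and 30726 in Control libraries. Each siCEBPG library held far fewer TUBB reads than either Control library, and the libraries within each group lay close together. The level was 849 ± 9.54 CPM in siCEBPG cells and 2034 ± 25.9 CPM in Control cells (SD, n = 2 each). The siCEBPG level was thus 41.8% of the Control level, a log2 fold change of -1.26 (SE 0.034). Over the 11 alternative settings it stayed between -1.27 and -1.16. Of all genes tested, 1.46% had a lower log2 fold change than TUBB. The authors' deposited table gives TUBB a log2 fold change of -1.27 (SE 0.037).

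TUBB3, a beta tubulin best known from neurons, was present at a low level. It had 69 and 66 counts in siCEBPG libraries against 81 and 83 in Control libraries. The groups did not overlap, yet they were only 12 counts apart at their nearest, and the log2 fold change was -0.37 (SE 0.16), with no call. TUBB3 is a plus-strand gene of chromosome 16, from 89921392 to 89938761.

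TUBB6, a broadly expressed beta tubulin known to make microtubules less stable when abundant, had the smallest difference of the 8. It is a plus-strand gene of chromosome 18, from 12307669 to 12344320. TUBB6 had 117 and 124 CPM in siCEBPG libraries and 136 and 138 CPM in Control libraries. The groups did not overlap, and the log2 fold change was -0.19 (SE 0.045), between -0.23 and -0.09 over the alternatives. TUBB6 was no longer called without Control replicate 1 or 2, without siCEBPG replicate 1, with total counts as the only scaling, or with limma on RPKM. AFG3L2, which encodes a mitochondrial protease subunit, overlaps TUBB6 on the opposite strand, and it was higher in siCEBPG cells (107 ± 4.15 CPM against 87.6 ± 2.28 CPM in Control cells, SD, n = 2 each, log2 fold change 0.29, edgeR adjusted p = 0.000153). The sources used here do not say whether the authors counted by strand, and its part in the TUBB6 value was not tested.

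Among the alpha tubulins, TUBA1B was the most abundant. Its counts were 3806 and 3977 in siCEBPG libraries and 4757 and 4808 in Control libraries. All values of the siCEBPG group lay below those of the Control group. TUBA1B averaged 244 ± 7.63 CPM in siCEBPG cells and 319 ± 2.86 CPM in Control cells (SD, n = 2 each), a log2 fold change of -0.39 (SE 0.038). It is a minus-strand gene of chromosome 12, from 49127782 to 49131397.

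TUBA1C and TUBA1A lie near TUBA1B on chromosome 12 and encode almost the same protein. TUBA1C, at 49188736 to 49274603 on the plus strand, had 1066 and 1088 counts in siCEBPG libraries against 1245 and 1240 in Control libraries. Its log2 fold change was -0.30 (SE 0.049), and the groups did not overlap. TUBA1A, at 49184796 to 49189324 on the minus strand and known as the main alpha tubulin of developing neurons, had 119 and 115 counts in siCEBPG libraries against 135 and 131 in Control libraries. The groups stayed apart by 12 counts, and the log2 fold change of -0.28 (SE 0.13) was not called. The ends of TUBA1A and TUBA1C overlap by 589 bases on opposite strands. Because reads of the 3 genes may have been exchanged in counting, their counts were also summed. The sum had a log2 fold change of -0.37 (SE 0.037), so the lower level of the trio did not depend on how reads were divided among them.

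TUBA4A encodes the alpha chain made without a C-terminal tyrosine, the residue that tubulin tyrosine ligase adds to it. It is a minus-strand gene of chromosome 2, from 219249711 to 219278170. The counts of TUBA4A were 2623 and 2789 in siCEBPG libraries and 3306 and 3328 in Control libraries. Both siCEBPG libraries were lower, and the level was 169 ± 7.39 CPM in siCEBPG cells against 221 ± 1.35 CPM in Control cells (SD, n = 2 each), a log2 fold change of -0.39 (SE 0.042). STK16, a kinase gene overlapping TUBA4A by 627 bases on the opposite strand, was higher in siCEBPG cells (log2 fold change 0.42, SE 0.083, edgeR adjusted p = 0.00053). TUBA4B, on that strand too, overlaps it by 18946 bases and had 1 to 7 counts in each library.

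TUBG1 encodes the gamma tubulin that most dividing cells use to start microtubules. It is a plus-strand gene of chromosome 17, from 42609676 to 42615234 and has 11 exons. TUBG1 had 934 and 1042 counts in siCEBPG libraries and 1242 and 1187 in Control libraries. The siCEBPG libraries differed from each other more than for most of the set, and still both were lower than either Control library. The level was 61.8 ± 4.80 CPM in siCEBPG cells and 81.0 ± 2.48 CPM in Control cells (SD, n = 2 each), a log2 fold change of -0.39 (SE 0.059). RETREG3, listed under its older symbol FAM134C and matched through the RefSeq synonyms, overlaps TUBG1 by 948 bases on the opposite strand. FAM134C had 40.1 ± 0.28 CPM in siCEBPG cells and 29.6 ± 0.38 CPM in Control cells (SD, n = 2 each, 0.44 on the log2 scale with an SE of 0.066, adjusted p = 4.66e-05 in edgeR), and its part in the TUBG1 value was not tested.

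TUBB, TUBA4A and TUBG1 kept a negative log2 fold change and their call in all 11 alternative settings. TUBA1B and TUBA1C did so in the 10 settings that kept the TUBA1 genes separate. TUBB3 in 11 and TUBA1A in 10 settings stayed negative and without a call. The authors' deposited table gives log2 fold changes of -0.40 for TUBA1B, TUBA4A and TUBG1, -0.38 for TUBB3, -0.31 for TUBA1C, -0.29 for TUBA1A and -0.20 for TUBB6.

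Per length, on the RPKM scale, TUBB was the most abundant of the 8 in both groups, with 264 and 259 RPKM in siCEBPG libraries against 579 and 589 RPKM in Control libraries. TUBA1B followed with 69.0 and 71.8 RPKM in siCEBPG libraries against 85.6 and 86.7 RPKM in Control libraries. TUBA4A had 41.6 and 44.1 RPKM in siCEBPG libraries against 52.1 and 52.6 RPKM in Control libraries. These genes were in the same order in every library, with no overlap between neighbours. TUBB6 had 29.5 and 31.0 RPKM in siCEBPG libraries and 31.9 and 32.4 RPKM in Control libraries. TUBG1 had 25.1 and 27.9 RPKM in siCEBPG libraries and 33.1 and 31.7 RPKM in Control libraries. TUBB6 and TUBG1 could not be ordered in Control cells, where their values overlapped, whereas TUBB6 was above TUBG1 in both siCEBPG libraries. TUBA1C came next at 20.6 and 20.9 RPKM in siCEBPG libraries against 23.8 RPKM in each Control library. TUBA1A stayed between 2.17 and 2.54 RPKM and TUBB3 between 0.69 and 0.87 RPKM over the 4 libraries, so both were low on this scale. Both levels are uncertain, because these genes share sequence with other transcripts. The lengths behind the authors' RPKM were obtained from their counts for genes above a set RPKM, which left out TUBB3. For the other genes of the set they were 1.12 times (TUBA1C) to 2.198 times (TUBA1B) those of the GENCODE transcripts used here. In Control cells TUBB3 made up 0.086% of the beta tubulins by RPKM and 0.232% per GENCODE transcript length, so the RPKM scale gave it a smaller share. The distances between genes thus depend on the length taken. So does the order of TUBB6 and TUBG1 in Control cells, as these lengths were 1.996 times (TUBB6) and 1.498 times (TUBG1) those of GENCODE.

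Another 15 tubulin genes were looked up, of which 10 have a row and 8 were tested. Of these 8, 2 were lower, 2 higher and 4 not called, and the median log2 fold change was -0.04. That is close to the background of 28.8% lower and 25.5% higher. TUBB4B, a beta tubulin expressed in most tissues and abundant in cilia, fell with the second largest read count of any tubulin. Its counts were 7564 and 8019 in siCEBPG libraries and 11981 and 12526 in Control libraries. The groups were far apart, at 488 ± 20.3 CPM in siCEBPG cells and 818 ± 26.9 CPM in Control cells (SD, n = 2 each), or -0.75 on the log2 scale (SE 0.039, adjusted p = 5.61e-10 in edgeR). TUBB and TUBB4B proteins are 97.5% identical and their coding sequences 84.6%, and TUBB4B shares 2.86% of its words of 100 bases with other transcripts. TUBE1, which encodes the epsilon tubulin of centrioles, had 267 and 246 counts in siCEBPG libraries and 378 and 368 in Control libraries. TUBE1 fell, at -0.63 on the log2 scale (SE 0.085, adjusted p = 1.6e-05 in edgeR). Both calls held in all 11 alternatives, and with any single library removed they were the only 2 calls among these 8 genes.

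The other tubulins were at low levels. TUBG2, the second gamma tubulin, had 246 counts in each siCEBPG library and 203 and 176 in Control libraries, so it was higher where TUBG1 was lower. Its log2 fold change was 0.28 (SE 0.10, edgeR adjusted p = 0.0311), and it was no longer called with any single library removed, with DESeq2 and with no filter on low counts (adjusted p 0.00445 to 0.225 over the alternatives). Whether TUBG1 and TUBG2 changed in a different way was not tested. TUBB1, the beta tubulin of platelets, had 11 and 14 counts in siCEBPG libraries and 4 and 6 in Control libraries (log2 difference 1.21, SE 0.46, adjusted p = 0.0378 in edgeR), with no call in the same settings and with limma on RPKM. TUBB2A had 108 and 112 counts in siCEBPG libraries against 117 and 115 in Control libraries (log2 fold change -0.17, SE 0.13, edgeR adjusted p = 0.298). TUBD1, the delta tubulin gene, had 108 and 124 counts in siCEBPG libraries and 82 and 103 in Control libraries (log2 fold change 0.23, edgeR adjusted p = 0.216). TUBAL3 and TUBA8 had 9 to 24 counts in each library with overlapping groups, and TUBA3D and TUBA4B had 1 to 10 counts and were not tested. The processed pseudogene TUBBP1, named after its values were seen, had 25 and 16 counts in siCEBPG libraries against 45 and 51 in Control libraries (log2 fold change -1.31, SE 0.26, edgeR adjusted p = 0.000539). TUBBP1 shares sequence with TUBB, and its reads cannot be told apart from TUBB reads over the shared stretch.

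**Figure D2:**
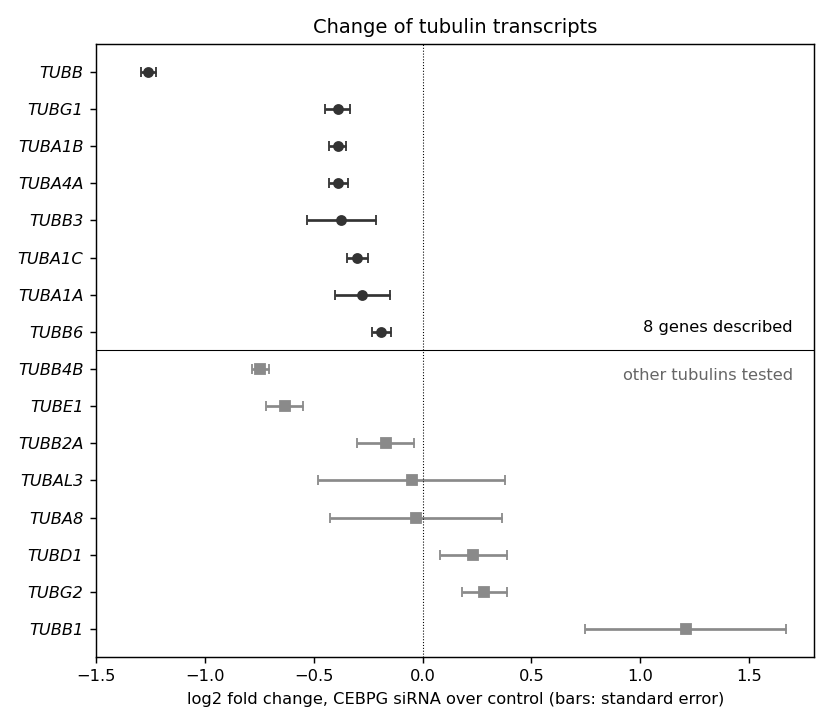
Log2 fold change of each tested tubulin gene, CEBPG siRNA over control (horizontal axis), with the standard error as a bar; dots above the line are the 8 genes described and squares below it the other tubulins. TUBB lies at -1.26, the other 7 of the set between -0.39 and -0.19, and among the others TUBB4B (-0.75) and TUBE1 (-0.63) lie furthest to the left.

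The makeup of the tubulin transcript pool therefore differed between the groups, mostly on the beta side. By RPKM, the 6 beta tubulin genes with a row summed to 530 and 540 in siCEBPG libraries and to 981 and 1009 in Control libraries. The 8 alpha tubulin genes with a row summed to 135.07 and 139.99 RPKM in siCEBPG libraries and to 165 and 166 RPKM in Control libraries. Both sums were lower in siCEBPG cells with no overlap, and the beta sum by more. The alpha sum divided by the beta sum was 0.257 ± 0.0033 in siCEBPG cells and 0.167 ± 0.0026 in Control cells (SD, n = 2 each). TUBB made up 49.7% and 47.9% of the beta RPKM in siCEBPG libraries against 59.0% and 58.4% in Control libraries. TUBB4B made up 43.8% and 45.4% in siCEBPG libraries against 37.2% and 37.9% in Control libraries. The beta pool thus held TUBB and TUBB4B in nearly equal parts in siCEBPG cells, while TUBB led clearly in Control cells. TUBB6, whose own level was a little lower, had a larger share in siCEBPG cells, at 5.65% ± 0.13 against 3.23% ± 0.031 in Control cells (SD, n = 2 each). Alpha shares moved less: TUBA1B was 51.2% ± 0.16 of the alpha RPKM in siCEBPG cells and 51.9% ± 0.22 in Control cells, and TUBA4A 31.2% ± 0.48 in siCEBPG cells and 31.5% ± 0.039 in Control cells (SD, n = 2 each). These shares describe RNA per length and were not tested, since they derive from the changes that chose the genes. Whether reads found in several copies were left out of the counts is not known. Over words of 50 bases TUBA1B shares 62.7% and TUBB 18.2%, and the part of such reads in the alpha and beta sums was not tested.

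**Figure D3:**
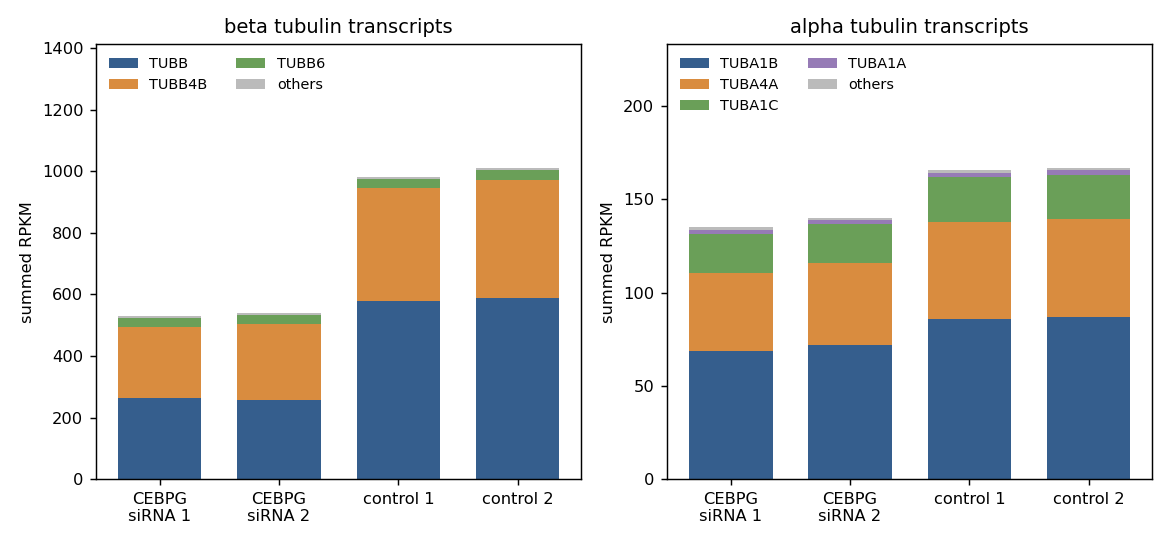
Summed RPKM (vertical axes from 0) of the beta tubulin genes (left) and the alpha tubulin genes (right) in each library, CEBPG siRNA libraries left of control libraries, with one colour per gene. The beta bars reach 530 and 540 in siCEBPG libraries against 981 and 1009 in Control libraries, and the alpha bars differ less.

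All 8 genes of the CCT chaperonin, the ring complex that folds alpha and beta tubulin and actin, fell, the median log2 fold change being -0.76, and these calls held in every alternative; over all genes tested, 28.8% were lower. CCT7 had 77.1 ± 3.21 CPM in siCEBPG cells against 531 ± 11.7 CPM in Control cells (SD, n = 2 each), or -2.78 on the log2 scale (SE 0.044, adjusted p = 3.38e-15 in edgeR). CCT2 (log2 fold change -1.02, edgeR adjusted p = 1.36e-11) and CCT8 (-0.99, edgeR adjusted p = 1.95e-11) fell most after it. Of the 6 prefoldin genes, whose products hand new chains to CCT, 5 fell, 0 rose and 1, PFDN5, was not called (median -0.23), beside 54.3% called and 28.8% lower over all genes. VBP1 had a log2 fold change of -1.05 (edgeR adjusted p = 1.23e-09) and PFDN2 of -0.54 (edgeR adjusted p = 6.5e-06). PFDN4 (-0.24, edgeR adjusted p = 0.0083) was lost without Control replicate 1 or 2 or siCEBPG replicate 1, with total counts, with DESeq2 and with limma, and the prefoldin calls came to 2 without Control replicate 2 or siCEBPG replicate 1 and to 3 without Control replicate 1.

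The tubulin cofactors, which take the chains from CCT, assemble the dimer and also take it apart, showed 5 lower, 0 higher and 3 not called of 8 genes (median -0.26), where 54.3% of all genes were called and 28.8% were lower. TBCD (-0.11) and TBCC (0.13) were among those not called. TBCEL, which destabilises tubulin, had a log2 fold change of -1.03 (edgeR adjusted p = 2.86e-07). TBCE (-0.56, edgeR adjusted p = 9.6e-07) and TBCB (-0.43, edgeR adjusted p = 1.2e-05), which act together on alpha tubulin, fell as well. The list thus holds genes that build the dimer and genes that dismantle it, and members of both kinds were lower.

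Of the 12 genes of tubulin mRNA autoregulation, 5 fell, 2 rose and 5 were not called (median -0.11). With 54.3% of all genes called, 7 calls of 12 are close to the background. TTC5, which reads the start of the chain, had 21.6 and 22.1 CPM in siCEBPG libraries and 24.1 and 22.6 CPM in Control libraries. The groups lay next to each other, and the log2 fold change was -0.10 (SE 0.080, edgeR adjusted p = 0.331). SCAPER, the adaptor, rose by 0.45 on the log2 scale (edgeR adjusted p = 0.00151). It was still higher without Control replicate 2, without siCEBPG replicate 1 and with limma, but lost its call there. The deadenylase complex genes CNOT10 (-0.43), RQCD1, whose current symbol is CNOT9 (-0.35), and CNOT7 (-0.27) fell, and CNOT6 (0.18, edgeR adjusted p = 0.00648) rose, but was not called with either Control replicate or siCEBPG replicate 1 left out or with no filter on low counts. The list had 3 calls without Control replicate 2 or siCEBPG replicate 1.

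Of the 20 genes of the gamma-tubulin complex and its recruiters, 11 fell, 6 rose and 3 were not called (median -0.19), beside 28.8% lower and 25.5% higher over all genes. MZT1, a small subunit of the ring complex, fell by a log2 fold change of -0.64 (edgeR adjusted p = 1.67e-07), as did HAUS8 (-0.45), an augmin subunit that brings the ring to existing microtubules, and MZT2A (-0.42, edgeR adjusted p = 0.000112, lost without Control replicate 2). HAUS5 (0.38, edgeR adjusted p = 6.65e-05) and the centrosome scaffold gene PCNT (0.32, edgeR adjusted p = 0.000135) rose. TUBGCP6, a ring subunit gene, rose by 0.27 (edgeR adjusted p = 0.00219), lost without Control replicate 1 and without siCEBPG replicate 1. Leaving out Control replicate 1 or 2 brought the list to 7 calls and leaving out siCEBPG replicate 2 to 10.

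Of 20 tested genes for enzymes that modify tubulin, 4 fell, 8 rose and 8 were not called, with a median log2 fold change of 0.14. These 12 calls of 20 are close to the 54.3% called over all genes. The glutamylase gene TTLL5 fell by a log2 fold change of -0.63 (edgeR adjusted p = 1.33e-07), and TPGS1 (-0.46) and TTLL4 (-0.29), which also serve glutamylation, were lower. The TPGS1 call was lost without Control replicate 1 or 2, without siCEBPG replicate 1 and with limma, and the TTLL4 call without Control replicate 1 and with limma. The glycylase gene TTLL3 rose by 0.67 (edgeR adjusted p = 0.000201). The carboxypeptidase genes AGBL2 (0.74, edgeR adjusted p = 0.000805) and VASH1 (0.63, edgeR adjusted p = 0.00133) rose too. Without Control replicate 2, AGBL2 (0.65) and VASH1 (0.54) were still higher but lost their call. Without Control replicate 1 the list had 6 calls and without Control replicate 2 it had 5.

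Of 31 tested genes of microtubule dynamics, 9 fell, 8 rose and 14 were not called, with a median of -0.02. This is the background split, at 28.8% lower and 25.5% higher over all genes. STMN1, which binds free tubulin dimers, fell by a log2 fold change of -0.45 (edgeR adjusted p = 1.88e-07), and the microtubule-binding protein gene MAP2 (-0.57, edgeR adjusted p = 7.81e-05, lost with limma) and the severing enzyme gene KATNA1 (-0.49, edgeR adjusted p = 0.000166) fell too. The plus-end binding protein genes CLIP2 (0.76, edgeR adjusted p = 1.37e-08) and CLIP1 (0.73, edgeR adjusted p = 1.25e-09) rose, as did STMN3 (0.46, edgeR adjusted p = 0.000739), lost without Control replicate 1. The list had 8 calls without Control replicate 1, 8 without Control replicate 2, 9 without siCEBPG replicate 1 and 10 without siCEBPG replicate 2.

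**Figure D4:**
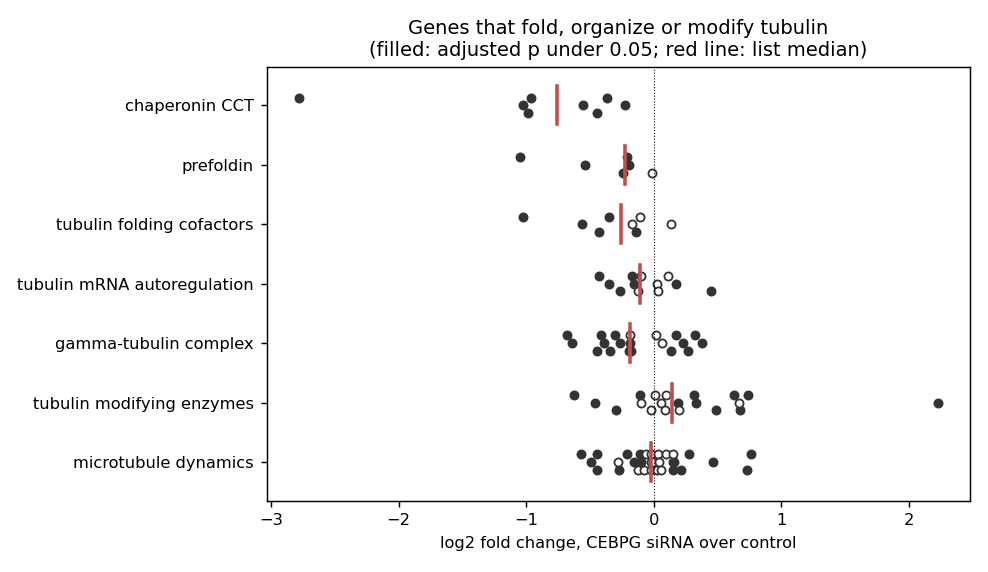
Log2 fold change, CEBPG siRNA over control, of each tested gene in 7 lists of genes that fold, organize or modify tubulin; filled points passed the edgeR test, open points did not, and a red line marks the list median. All 8 chaperonin genes lie left of 0 with CCT7 at -2.78, whereas the modifying enzymes and the microtubule dynamics genes lie on both sides.

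Among the 8 genes, a short word in the 3′ untranslated region was found in TUBB alone. GGCTATT and CGGAGAA were searched on the sense strand of the GENCODE transcript chosen for each gene, and other transcripts of a gene were not searched. The words were taken because an earlier account of these same libraries had reported them, so they are not independent evidence. The sites of GGCTATT in TUBB (chr6:30724871-30724877, plus strand, exon 4), in the siRNA target CEBPG (chr19:33379810-33379816, plus strand, exon 2) and in CCT7 (chr2:73252978-73252984, plus strand, exon 12) are shown with their neighbouring bases from GRCh38, the word in capitals, because these are the most changed tubulin of the set, the intended target and the most changed chaperonin gene.
TUBB: gggaaatccaGGCTATTaaagtcacta
CEBPG: acccattggaGGCTATTttctgggatc
CCT7: tcttactggaGGCTATTtaaataaaat
TUBB was the only one of the 8 with GGCTATT in this region, and none of the 8 had it in the coding sequence. Over the 12556 listed genes with a transcript, 6.63% had it in the 3′ untranslated region, so 1 gene of 8 says little about the set. The 771 tested genes with the word there had a median log2 fold change of -0.35, 61.7% were called lower and 11.7% higher, whereas the 10627 without it had a median of -0.005, 30.8% lower and 27.2% higher. A log2 fold change below that of TUBB was found for 76 of the 771 genes with the word and for 102 of the 10627 without it. These comparisons did not take the length of the region into account. Among the folding genes, CCT7, VBP1 and TBCEL had the word, the most reduced gene of the chaperonin, prefoldin and cofactor lists in each case, and so did TTLL5, the most reduced modifying enzyme gene. In the dynamics list MAP7 (log2 fold change -0.45, edgeR adjusted p = 1.85e-05) and FIGN (-0.12, not called) had it. SCAPER, which rose, TTL, which had a log2 fold change of -0.02 and no call, and TUBB1 also had it. TUBB4B, which fell, did not have it, and nor did the 7 other genes of the set, which were all lower. The word was also absent from this region of CNOT10 and MAP2, the most reduced genes of the autoregulation and dynamics lists. No gene of the gamma-tubulin complex list had it there. CGGAGAA occurred in the 5′ untranslated region of TUBB, as in 2.57% of listed genes, and in that of CCT7, but in no 3′ untranslated region of the 8. The 301 tested genes with CGGAGAA in the 5′ untranslated region had a median log2 fold change of -0.06, against -0.02 for those without it, with 35.2% lower in genes with it and 32.8% lower in genes without it. In the 3′ untranslated region it went with higher values, a median of 0.24 over 238 genes with it, 47.9% higher and 18.1% lower. As background, an siRNA can lower transcripts whose 3′ untranslated region matches its seed, whatever its intended target. The sequence of the siRNA was not analysed here, so whether GGCTATT is such a match was not tested. With a single siRNA, a fall of TUBB or CCT7 that follows the loss of CEBPG and one that comes from the siRNA itself cannot be told apart.

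Promoter windows from 250 bases before to 50 bases after the RefSeq start (GRCh38.p14) were searched on both strands, and the 8 genes have 13 such windows. TGATGCAAT, a composite element that heterodimers of ATF and C/EBP proteins can bind, was in none of the 13 and in 0.24% of all 35116 windows outside chromosome 8. CCAAT was in 8 of the 13, belonging to 6 genes, TUBB among them, and in 34.6% of all windows. Windows of 1 gene can overlap, as at TUBA1C, so a site can count in more than 1 window. GGGCGG was in 8 of the 13 and in 44.95% of all, and TATAA in 3 of the 13 and in 20.4% of all. No match says only that these letters are not in the window.

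The genes whose profile was most like that of TUBB were sought by distance. Over the 4 libraries, and among the 10564 genes outside the lists that averaged 5 CPM or more, HSBP1 and SLC7A5 had the smallest Euclidean distances to TUBB in centred log2 CPM, at 0.016 for HSBP1 and 0.017 for SLC7A5. HSBP1, which encodes a binder of heat shock factors, had 77.1 and 74.9 CPM in siCEBPG libraries and 180 and 183 CPM in Control libraries. SLC7A5, which encodes a transporter of large neutral amino acids, had 2133 and 2128 CPM in siCEBPG libraries and 5015 and 5132 CPM in Control libraries. With 2 libraries a group, this likeness is mostly that of a single difference, and it says nothing about a shared control.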

How the data were processed

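The authors deposited 1 table with whole-number read counts per gene for 4 KYSE150 libraries, 2 per group, with their RPKM values and their comparison (log2 fold change, standard error, p-value and adjusted p-value), per the file headers. The deposited RPKM were used for levels and shares, and the authors' log2 fold change and its error only where named. The submitters' processing notes name DESeq 3.4, RSEM 1.2.12, HISAT2 2.0.4, Bowtie2 2.2.5 and hg19 with no role; the sources used here do not give the annotation or strandedness. Every listed gene has at least 10 counts over the libraries.

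Counts were tested in R 4.3.3 with edgeR 4.0.16: TMM, filterByExpr with a minimum count of 10, the two-sided quasi-likelihood F test, and Benjamini-Hochberg adjustment over 14207 genes, threshold 0.05. The procedure was also run on simulated counts with far fewer changed genes than were called here. That run cannot show the error rate for these data. The tubulin genes, lists and words were chosen with earlier results of these data known. Named were the 8 genes, every other tubulin tested or listed, CEBPG, CCT7, TTC5, up to 3 called genes with the largest rise and fall per list at a mean of at least 5 CPM, and the 3 genes nearest to TUBB, 1 of which is not reported here; overlapping genes, markers, genes not called in the folding lists, TUBBP1, and TTL, MAP7 and FIGN as holders of a word were named after their values were seen. No label states that replicates were separate cultures, so p-values measure a spread that may be technical.

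Alternatives were upper-quartile scaling, total counts, DESeq2 1.42.0, no filter, a replicate block, each library left out, limma 3.58.1 on log2 of RPKM plus 0.1, and summed TUBA1 counts. Counts within a group differed by more than sampling (chi-square per gene 1.93 in siCEBPG, 1.57 in Control). Sequences came from GENCODE v29 on GRCh38, not the authors' build, by gene name. No coordinates were converted.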

Additional observations from a re-analysis of the deposited data

How the results depend on the processing

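The genes called numbered 7715, and 4309 to 5391 with 1 library left out (4568 without Control replicate 1, 4309 without Control replicate 2). Deviations of libraries with the same replicate number were hardly correlated (0.042). As each deviation rests on single libraries, this cannot show that the libraries were unpaired. With the replicate block 8130 genes were called. Total counts gave 8018 calls of 14207 genes tested and DESeq2 5426 of 13332. With 17825 genes tested, limma on RPKM gave 6138 calls and the fit with no filter 6946. The list counts under these settings are to be read beside those totals. Over all genes the median log2 fold change was 0.005 with TMM, 0.10 with total counts and 0.11 with limma on RPKM, and the share of calls that were higher 46.9%, 61.6% and 59.7% (57.1% with upper-quartile factors), so small changes such as that of TUBB6 depend on the scaling. The 8 tubulin genes and the CCT genes kept their direction in all alternatives run. Calls among other tubulins came to 2 with DESeq2, with no filter, and with each library left out, against 4. Prefoldin calls were 5, and 2 with total counts, 3 with DESeq2, 2 with limma and 2 to 4 with a library left out. Autoregulation calls were 7, and 4 with limma and 3 to 6 with a library left out. Gamma-tubulin complex calls were 17, and 9 with DESeq2, 10 with limma and 7 to 12 with a library left out. Modifying enzyme calls were 12, and 5 to 8 with a library left out. Dynamics calls were 17, and 11 with DESeq2 and 8 to 10 with a library left out. Fewer libraries give fewer calls by construction; the other causes were not tested. TUBB made up 57.8% of beta transcripts in siCEBPG cells and 67.7% in Control cells by CPM, and 46.7% in siCEBPG and 57.0% in Control cells per GENCODE transcript length, a setting chosen after seeing the data. The alpha over beta ratio was 0.334 in siCEBPG and 0.211 in Control cells by CPM, and 0.375 in siCEBPG and 0.249 in Control cells per transcript length. Depth limits TUBB3 and TUBA1A, at 66 to 135 counts a library.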
